A study of Mus musculus with 8 samples.

Results

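Transcript levels of 10 genes of bone morphogenetic protein (BMP) signalling were followed through 8 RNA-seq libraries of mouse pluripotent stem cells and mesoderm progenitors. The genes were chosen by name for their place in the pathway, and each symbol matched 1 of the 37620 genes in the count tables. They comprise the ligands Bmp2, Bmp4 and Bmp7, the receptors Bmpr1a, Bmpr2 and Acvr1, and the secreted antagonists Nog, Chrd, Fst and Grem1. R1, a line of mouse embryonic stem cells (mESCs), gave 7 of the 8 libraries, and the names of conditions follow the study. The 2i condition (day 5, 1 library) held CHIR99021, a GSK3 inhibitor, at 3 µM and PD0325901, a MEK inhibitor, at 1 µM. The 2iJ condition (day 5, 1 library) added a JAK inhibitor at 2.0 µM. The 2iJ+B-A condition (days 2, 5 and 11, 1 library each) further added BMP4 protein at 10 ng/ml and ALK5 inhibitor II, which blocks Activin/Nodal receptors, at 10 µM. All of these mESC cultures held serum and no feeder cells. The sorted library held GFP-positive cells of a line with a CDX2-GFP reporter, taken on day 2 of 2iJ+B-A, so its line differed as well as its gate. The mesoderm progenitors (days 3 and 4, 1 library each) came from embryoid bodies in a medium with no listed serum. That medium, by the study's account of its methods, also received BMP4, together with Activin A and Wnt3a, and the day 4 cells had been given IWP-2, an inhibitor of Wnt secretion. BMP4 protein had therefore been added in 6 of the 8 cultures, at a lower dose for the mesoderm progenitors, and the libraries of a group differed in day, so their spread joined time and replicate error.

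BMPs are secreted dimers of the TGF-β family. They bind a complex of type I receptors, such as those encoded by Bmpr1a and Acvr1, and type II receptors, such as that encoded by Bmpr2. The complex phosphorylates Smad1, Smad5 and Smad9, which enter the nucleus with Smad4 and activate targets such as the Id genes. Noggin, chordin and gremlin hold BMPs away from their receptors, while follistatin binds Activin above all and BMPs more weakly. In mouse ES cell culture BMP4 is known to support self-renewal together with LIF, and in the embryo BMP signals are known for their role in forming mesoderm.

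The libraries held between 19810855 and 31453888 gene counts, and levels are given as CPM, the count per 1000000 of that total. At these depths 3 counts, used as the floor, were worth 0.095 to 0.151 CPM. The sorted library stood apart, with 29.7% of its read pairs unmapped against 2.17% to 3.85% elsewhere, and 27.84% outside exons against 7.83% to 13.21%. Summed fibroblast markers (8 genes) reached 105 CPM there against 8.81 to 16.8 CPM in the other libraries, with 1 of the 8 genes under 1 CPM. Pluripotency markers (8 genes) summed to 3976 to 6654 CPM in the 6 mESC libraries and to 1327 and 151 CPM in mesoderm progenitors on days 3 and 4. Mesoderm markers (8 genes) summed to 1627 and 590 CPM in the latter and to at most 59.1 CPM in the former, so both sums separated the 2 cell types. Of the pluripotency markers Tdgf1 alone did not, at 368 CPM in day 3 mesoderm against 118 to 193 CPM in 2iJ+B-A and 20.1 CPM in sorted cells. Each of the others was lower in both mesoderm libraries than in every mESC library. The day 4 sum of mesoderm markers rested mainly on Kdr (305 CPM) and Pdgfra (240 CPM). Eomes was at 22.2 CPM there, and T, Mesp1, Mixl1, Tbx6 and Fgf8 were at 7.17 CPM or less. Trophectoderm markers (8 genes) summed to 639 and 859 CPM in mesoderm progenitors, 73.3 to 1310 CPM in unsorted mESCs and 3948 CPM in sorted cells. Cdx2, the gene of the gate, was at 235 CPM in the sorted library and 15.0 to 30.1 CPM in 2iJ+B-A. These are bulk libraries, in which fewer cells of a type and less RNA per cell cannot be told apart.

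Chrd and Grem1, the antagonists that passed the test in mesoderm progenitors, are shown with their promoters, beside that of Bmp4, whose protein was added to the medium. The sequences are from RefSeq (build GRCm38.p6) and run from 250 bases before to 50 bases after the transcript start, 5′ to 3′ along the gene. Capitals mark GGCGCC, a GC-rich element bound by BMP Smads, and GTCTG or its reverse complement CAGAC, which hold the core of the Smad box, and no matches overlapped.
Chrd (chr16:20732877-20733176, plus strand): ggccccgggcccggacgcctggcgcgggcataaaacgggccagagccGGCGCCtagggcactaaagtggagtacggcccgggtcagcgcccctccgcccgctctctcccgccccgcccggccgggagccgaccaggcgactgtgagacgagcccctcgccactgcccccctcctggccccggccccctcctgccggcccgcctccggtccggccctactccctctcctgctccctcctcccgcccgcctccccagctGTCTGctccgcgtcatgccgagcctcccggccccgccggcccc
Grem1 (chr2:113758599-113758898, minus strand): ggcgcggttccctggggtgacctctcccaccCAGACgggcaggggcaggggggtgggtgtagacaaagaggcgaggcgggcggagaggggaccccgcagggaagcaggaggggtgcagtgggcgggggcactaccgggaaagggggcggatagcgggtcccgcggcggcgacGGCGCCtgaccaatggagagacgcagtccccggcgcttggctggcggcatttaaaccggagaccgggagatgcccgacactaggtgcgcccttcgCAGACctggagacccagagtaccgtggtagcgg
Bmp4 (chr14:46390620-46390919, minus strand): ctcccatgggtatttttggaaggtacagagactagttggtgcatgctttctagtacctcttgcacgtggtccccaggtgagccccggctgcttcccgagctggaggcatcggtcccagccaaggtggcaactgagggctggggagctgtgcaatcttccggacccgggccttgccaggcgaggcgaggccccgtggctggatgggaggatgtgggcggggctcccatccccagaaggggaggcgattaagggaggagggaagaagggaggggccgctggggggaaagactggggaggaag
Chrd and Grem1 each held 1 GGCGCC, and GTCTG or CAGAC occurred 1 time in Chrd and 2 times in Grem1. The Bmp4 window held neither of these marked motifs. The shorter AGAC, a part of CAGAC, was not marked and occurs in each of the windows, that of Bmp4 included. Among the 27025 promoters of this length, 11.96% held GGCGCC and 49.67% held GTCTG on either strand. The GC content was 78.3% for Chrd, 70.7% for Grem1 and 64.0% for Bmp4, against a median of 52.7% over all promoters, so these shares are not matched for GC content. The table had promoters for 6 of the 10 genes. Of the receptors, Bmpr1a and Bmpr2 each held 1 GGCGCC and Acvr1 none. Bmp2, Bmp7, Nog and Fst were not matched.

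Bmp4 (ENSMUSG00000021835, NCBIM37 chr14:47003195-47010344) was the leading ligand per length in 7 of the 8 libraries. It measured 8.14 CPM in 2i and 6.11 CPM in 2iJ. In 2iJ+B-A it measured 9.82, 20.9 and 24.7 CPM on days 2, 5 and 11, and 9.59 CPM in sorted cells. Mesoderm progenitors had 7.03 CPM at day 3 but 161 CPM at day 4. The day 4 mesoderm library thus stood far above the rest, and the day 3 mesoderm library lay among 2i and 2iJ, with neighbouring 95% Wilson intervals overlapping.

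Bmp2 (ENSMUSG00000027358, chr2:133377895-133388621), the closest relative of Bmp4 in sequence, was scarce in mESCs. Its levels were 0.249 CPM in 2i, 0.467 CPM in 2iJ and 0.611, 2.13 and 1.99 CPM on days 2, 5 and 11 of 2iJ+B-A. It measured 1.46 CPM in sorted cells, and 4.55 and 24.4 CPM in mesoderm progenitors on days 3 and 4. The intervals of 2i and 2iJ overlapped, as did those of 2iJ and day 2 of 2iJ+B-A, and both mesoderm libraries were above every mESC library.

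Bmp7 (ENSMUSG00000008999, chr2:172693513-172765822), a ligand that can signal through Acvr1, had the opposite order over days in 2iJ+B-A. Its levels were 9.54, 6.71 and 2.60 CPM on days 2, 5 and 11. It measured 6.57 CPM in 2i, 8.83 CPM in 2iJ and 12.4 CPM in sorted cells, and 32.6 and 67.7 CPM in mesoderm progenitors on days 3 and 4. The lowest of the 8 values was that of day 11 of 2iJ+B-A, and the 2 highest were those of mesoderm progenitors.

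**Figure D1:**
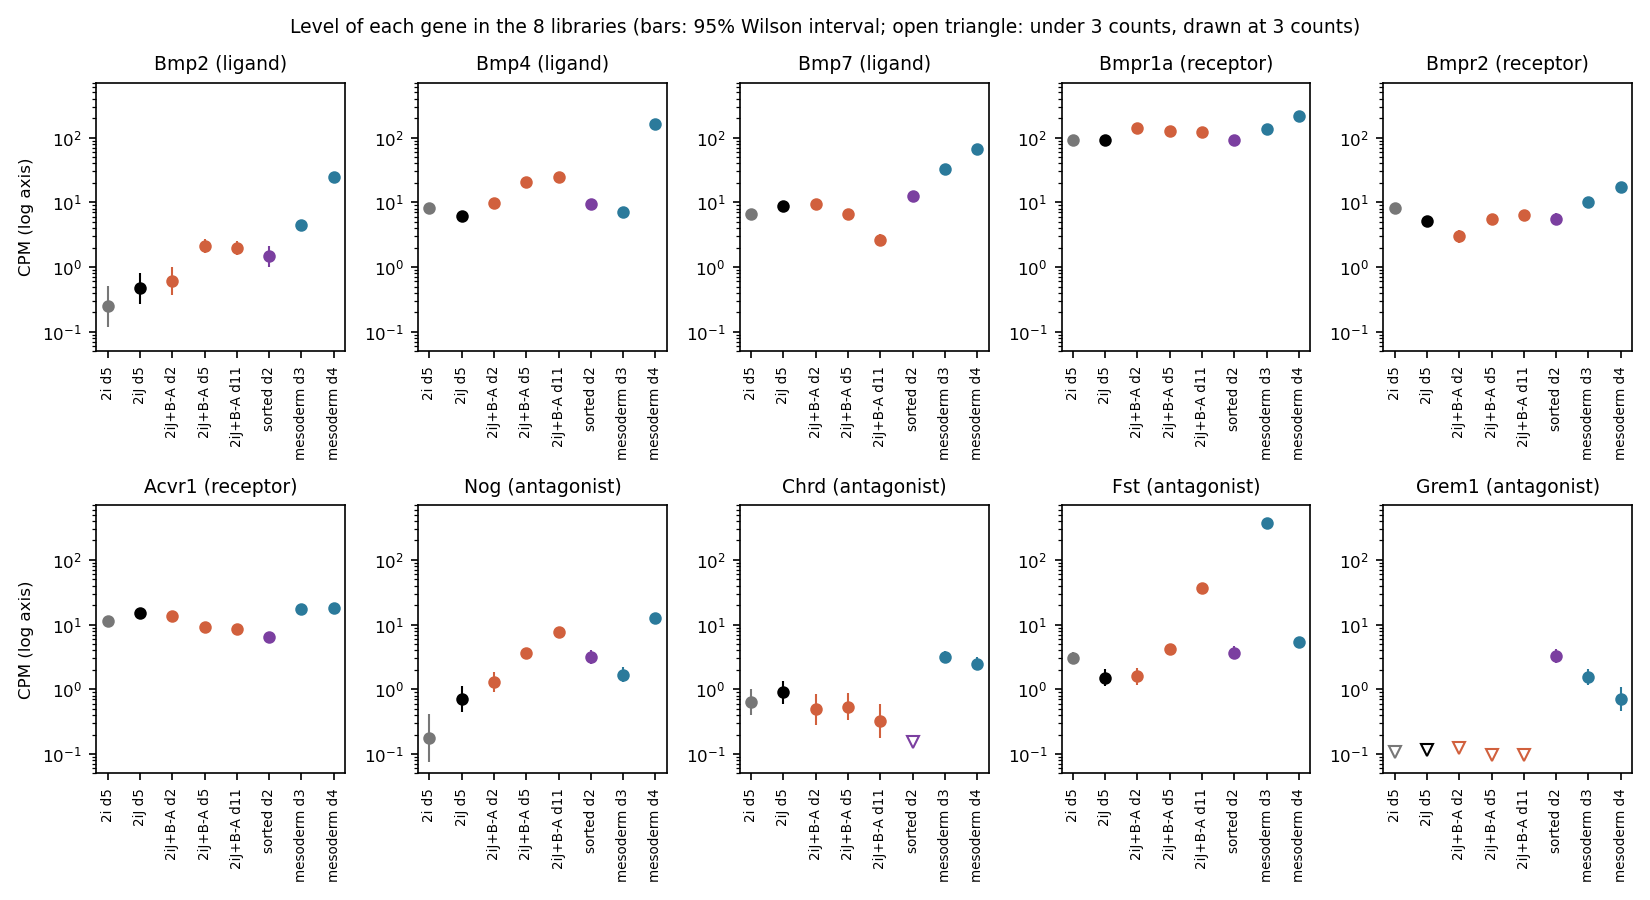
CPM of each gene (log axis) in the 8 libraries, 1 point per library, coloured by condition, with 95% Wilson intervals that cover counting error only; open triangles are libraries with under 3 counts, drawn at the floor of 3 counts. Bmpr1a lies between 91.4 and 219 CPM throughout, while Bmp4 and Fst each peak in a different mesoderm library (161 and 379 CPM) and Grem1 is above the floor only in sorted cells and mesoderm progenitors.

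Among the receptors, Bmpr1a (ENSMUSG00000021796, chr14:35223920-35316527), the type I receptor for BMP2 and BMP4, was the most abundant of the 10 genes per kilobase in 6 of the 8 libraries. It measured 93.4 CPM in 2i, 91.6 CPM in 2iJ, 91.4 CPM in sorted cells, and 140, 129 and 124 CPM on days 2, 5 and 11 of 2iJ+B-A. Mesoderm progenitors had 137 and 219 CPM on days 3 and 4. From lowest to highest its levels spanned the narrowest range of the 10 genes, and the 3 libraries of 2iJ+B-A lay above those of 2i, 2iJ and sorted cells.

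Bmpr2 (ENSMUSG00000067336, chr1:59821481-59927703), the type II receptor dedicated to BMPs, measured 8.07 CPM in 2i, 5.22 CPM in 2iJ and 2.98, 5.47 and 6.48 CPM on days 2, 5 and 11 of 2iJ+B-A. It measured 5.60 CPM in sorted cells and 10.2 and 17.0 CPM in mesoderm progenitors on days 3 and 4. Acvr1 (ENSMUSG00000026836, chr2:58241055-58419568), a type I receptor used by BMP7, measured 11.4 CPM in 2i, 15.0 CPM in 2iJ, 13.7, 9.19 and 8.56 CPM on days 2, 5 and 11 of 2iJ+B-A, 6.51 CPM in sorted cells, and 17.6 and 18.3 CPM in mesoderm progenitors. Both receptors were highest in the mesoderm libraries, and for Acvr1 the intervals of every pair of neighbours in the order overlapped.

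Of the antagonists, Nog (ENSMUSG00000048616, chr11:89161952-89163873), which encodes noggin, measured 0.178 CPM in 2i and 0.701 CPM in 2iJ. It measured 1.30, 3.59 and 7.58 CPM on days 2, 5 and 11 of 2iJ+B-A, 3.13 CPM in sorted cells, and 1.69 and 12.6 CPM in mesoderm progenitors on days 3 and 4. The 2i library, with 5 counts, was the lowest, and day 4 mesoderm the highest.

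Fst (ENSMUSG00000021765, chr13:115242470-115249159), which encodes follistatin, had the widest range of the genes detected in every library. It measured 3.02 CPM in 2i, 1.52 CPM in 2iJ and 1.59, 4.26 and 36.7 CPM on days 2, 5 and 11 of 2iJ+B-A. Sorted cells had 3.69 CPM, and in mesoderm progenitors it measured 379 CPM first, on day 3, and then 5.40 CPM. The day 3 mesoderm library was far above all others, and day 11 of 2iJ+B-A came next.

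Chrd (ENSMUSG00000006958, chr16:20733200-20742457), which encodes chordin, was scarce everywhere. It measured 0.639 CPM in 2i, 0.895 CPM in 2iJ, 0.489, 0.540 and 0.326 CPM on days 2, 5 and 11 of 2iJ+B-A, and 3.21 and 2.49 CPM in mesoderm progenitors. No read was counted in sorted cells, where 3 counts would be 0.151 CPM. Grem1 (ENSMUSG00000074934, chr2:113586321-113598803), which encodes gremlin, had 64 counts in sorted cells (3.23 CPM), 49 and 22 counts in mesoderm progenitors on days 3 and 4 (1.56 and 0.711 CPM), and at most 1 count in each of the 5 unsorted mESC libraries. Both genes were low enough that their values rest on few reads.

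Per kilobase of exon, which allows genes to be set side by side, the make-up of each role differed between libraries. Bmp4 made up 54.1% to 90.2% of the summed CPM per kilobase of the 3 ligands in mESCs, against 25.2% in mesoderm on day 3 and 75.3% on day 4. Bmp7 led on day 3 of mesoderm, with 64.7%. In 2iJ+B-A the share of Bmp7 was 34.1%, 14.3% and 5.26% on days 2, 5 and 11, so Bmp4 was all but the sole ligand of the 3 on day 11. Bmpr1a held 75.8% to 85.7% of the receptor sum in all 8 libraries. Among antagonists Fst held 98.7% in mesoderm on day 3, Nog 71.6% on day 4, and Grem1 20.6% in sorted cells, its highest share. The antagonist sum was 1.33 CPM per kilobase in 2i, 1.09 in 2iJ, and 1.36, 3.56 and 17.6 on days 2, 5 and 11 of 2iJ+B-A. The ligand sum over the same libraries was 5.36, 5.08, 6.96, 11.6 and 12.3 CPM per kilobase, so the antagonist sum exceeded the ligand sum on day 11 only among these 5. That day 11 excess rested on Fst, which held 77.3% of the antagonist sum at 13.6 CPM per kilobase. Nog came next, with 22.4% at 3.95 CPM per kilobase. In mesoderm the antagonist sum was 143 on day 3 and 9.18 on day 4, against ligand sums of 12.6 and 95.9 CPM per kilobase.

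**Figure D2:**
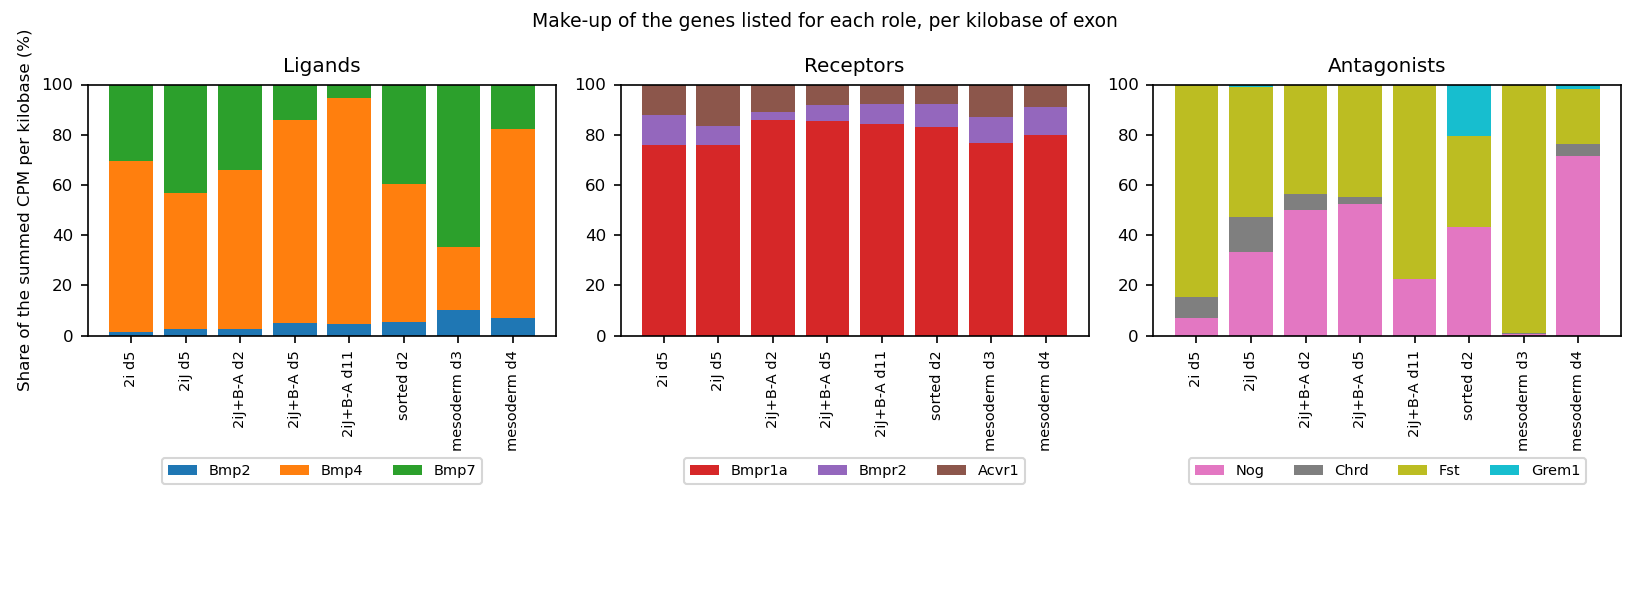
Share (%) of each gene in the summed CPM per kilobase of exon of the 3 ligands, the 3 receptors and the 4 antagonists, 1 stacked bar per library. The receptor bars are alike, whereas the ligand bars range from 25.2% to 90.2% Bmp4 and the antagonist bars from 0.61% to 71.6% Nog.

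Setting 2iJ+B-A beside 2iJ asked how the pathway's own genes stood when BMP4 was added and Activin/Nodal receptors were blocked. None of the 10 genes passed the test. On day 5, the day both conditions share, Nog was 5.13 times (3.10 to 8.97), Bmp2 4.56 times (2.45 to 9.27), Bmp4 3.41 times (2.86 to 4.09) and Fst 2.81 times (1.95 to 4.12) its 2iJ level, with exact intervals that cover counting error only. Bmpr1a stood at 1.40 times (1.33 to 1.48), Bmp7 at 0.759 times (0.627 to 0.920) and Acvr1 at 0.612 times (0.523 to 0.714). The intervals of Bmpr2 and Chrd included equality, and these are ratios of single libraries with no replicate check.

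Over all 3 days the fitted log2 fold changes were 2.50 for Nog (standard error 1.51), 1.68 for Bmp2 (1.23), 1.53 for Bmp4 (1.51) and 3.16 for Fst (2.75). Without day 11 of 2iJ+B-A, those of Fst and Nog were 0.87 and 1.72. Bmp7 had -0.56 (0.72), Acvr1 -0.58 (0.39) and Chrd -1.05 (0.60). With edgeR's quasi-likelihood test and Benjamini-Hochberg adjustment, the adjusted p-values of the 10 genes lay between 0.782 for Chrd and 0.982 for Bmpr2. The background was 0% of the 16961 genes tested, with 1290 genes and 0 of the 10 at an unadjusted p under 0.05, and DESeq2 called 309 genes and again none of the 10. The median log2 fold change was 0.16 over the 10 genes and 0.03 over all genes. Setting 2iJ+B-A against 2i and 2iJ together, 5 of the 10 genes had values that did not overlap (Bmp2, Bmp4, Bmpr1a and Nog above, Chrd below), and 43.5% of all genes tested did so too.

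The JAK inhibitor separates 2iJ from 2i, each of 1 library and with no test. In 2iJ Nog had 18 counts against 5, a ratio of 3.94 (1.41 to 13.6), and Acvr1 and Bmp7 were at 1.32 times (1.13 to 1.53) and 1.34 times (1.10 to 1.64) their 2i levels. Fst was at 0.503 times (0.335 to 0.743), Bmpr2 at 0.647 times (0.518 to 0.804) and Bmp4 at 0.751 times (0.609 to 0.924). The intervals for Bmp2, Bmpr1a and Chrd included equality, and Grem1 had at most 1 count. So 6 ratios differed from equality by more than counting error, 3 in each direction. The share of all genes that did so was not computed, so this count has no background.

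Within 2iJ+B-A, the change with time was fitted as a slope on log2(day). From day 2 to day 11, Fst stood at 23.1 times (16.8 to 32.6), Nog at 5.81 times (4.01 to 8.70), Bmp2 at 3.25 times (1.82 to 6.15) and Bmp4 at 2.52 times (2.18 to 2.92) its day 2 level. Bmp7 stood at 0.273 times (0.209 to 0.353), Acvr1 at 0.627 times (0.531 to 0.739) and Bmpr2 at 2.18 times (1.66 to 2.89). Nog, Fst, Bmp4 and Bmpr2 had their 3 values in the order of the days from low to high, and Bmp7, Acvr1 and Bmpr1a in the reverse order. For Bmpr1a, Acvr1 and Bmpr2 the Wilson intervals of days 5 and 11 overlapped. The share of all genes with either order was not computed, so these orders have no background.

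The slopes per doubling of the day were 1.85 for Fst (standard error 0.98), 1.02 for Nog (0.57), 0.54 for Bmp4 (0.76) and -0.75 for Bmp7 (0.27). None of the 10 passed edgeR's quasi-likelihood test after Benjamini-Hochberg adjustment, against 0% of all genes. Before adjustment, 1004 genes had an edgeR p under 0.05, among them 1 of the 10, Bmp7, and DESeq2 called 115 genes and none of the 10. Part of the spread used here came from the 2 mesoderm libraries. Without the day 3 mesoderm library Fst and Nog passed, with edgeR adjusted p-values of 0.0113 and 0.0479, and without the day 4 mesoderm library Fst alone did, with 0.0019. In those fits 2.27% and 2.81% of all genes were called. Summed primitive endoderm markers (6 genes) stood at 13.7, 35.4 and 144 CPM on days 2, 5 and 11, with Gata4 at 5.18, 15.5 and 72.8 CPM and Sox17 at 1.06, 5.12 and 24.1 CPM, against 9.34 CPM for the sum in 2iJ. Trophectoderm markers (8 genes) summed to 549, 1310 and 625 CPM on those days. Their part in the values of Fst, Nog and Bmp7 was not tested.

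**Figure D3:**
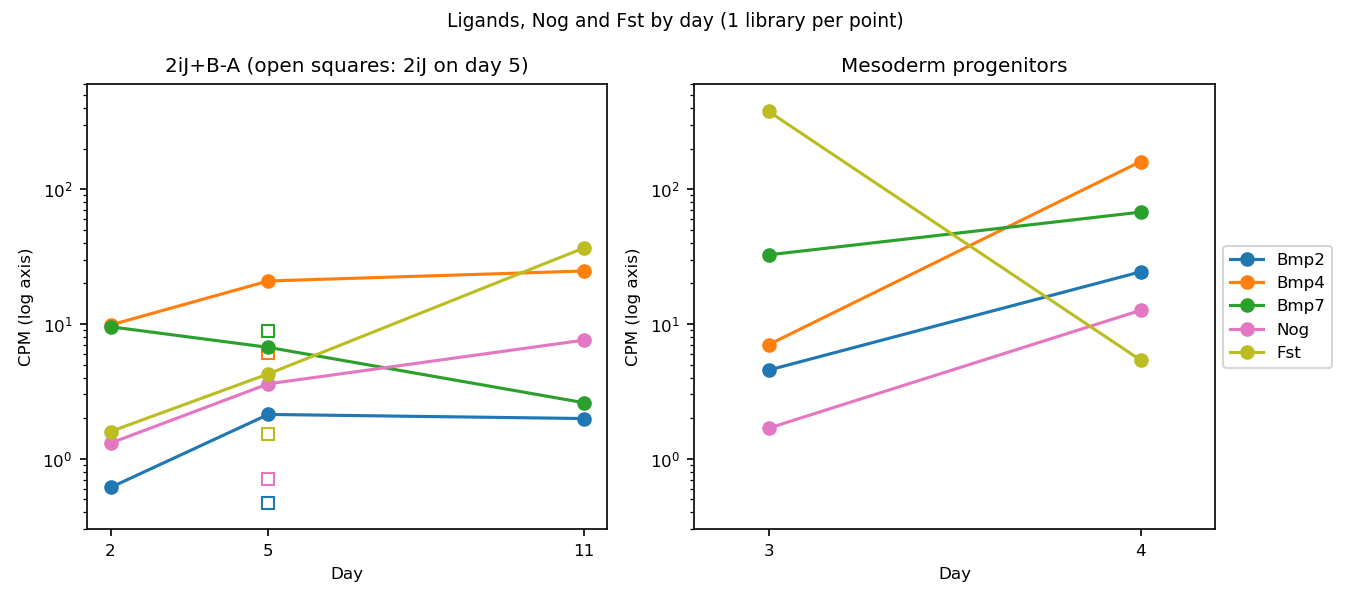
CPM (log axis) of the ligands, Nog and Fst by day in 2iJ+B-A (left, with open squares for 2iJ on day 5) and in mesoderm progenitors (right), 1 library per point. Fst is at 1.59, 4.26 and 36.7 CPM in 2iJ+B-A, and it is at 379 and then 5.40 CPM in mesoderm progenitors, where Bmp4 is at 7.03 and then 161 CPM.

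The comparison of mesoderm progenitors with 2iJ+B-A set cells given BMP4 in different media side by side. Bmp2, Bmp7, Chrd and Grem1 were higher in mesoderm progenitors, and none of the 10 was lower. The count of 4 of 10 stands against a background of 27% of all genes called, of which 11.5% were higher and 15.5% lower. The 4 include Grem1, which passed the filter on low counts only through libraries where it is high. Its place in the count was thus in part set by the filter. The median log2 fold change was 2.43 over the 10 genes and -0.03 over all genes, and all 10 fitted values were positive.

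Bmp7 averaged 50.1 ± 24.8 CPM (SD, n = 2) in mesoderm progenitors, against 6.28 ± 3.49 CPM (SD, n = 3) in 2iJ+B-A, which gave a fitted log2 difference of 3.01 (standard error 0.58, edgeR adjusted p = 0.0146). Bmp2 averaged 14.5 ± 14.0 and 1.58 ± 0.839 CPM, with a fitted log2 difference of 3.22 (standard error 0.84, edgeR adjusted p = 0.0341). Chrd averaged 2.85 ± 0.512 and 0.452 ± 0.112 CPM, with a fitted log2 difference of 2.66 (standard error 0.48, edgeR adjusted p = 0.0117). For each of these genes both mesoderm libraries were above all 3 libraries of 2iJ+B-A. The call for Bmp2 was lost without the day 4 mesoderm library (log2 difference 1.57, against 4.02 without day 3) and without each library of 2iJ+B-A in turn, and those for Bmp7 and Chrd without day 5 of 2iJ+B-A (edgeR adjusted p = 0.0572 and 0.0535).

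Grem1 had 71 counts in both mesoderm libraries together and 1 count in the 3 libraries of 2iJ+B-A, a ratio of 98.6 (17.1 to 3950, counting error only). Its fitted log2 fold change of 6.17 (edgeR adjusted p = 0.0076) depends on the prior count. Grem1 passed the filter on low counts only through the mesoderm and sorted libraries, where it is high, so being called was in part set by the filter. It was called under all 13 alternatives of this comparison, which use the same libraries and are no separate support.

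The other 6 genes did not pass. Bmpr2 came closest, with a fitted log2 difference of 1.47 (standard error 0.44, edgeR adjusted p = 0.0519), and it passed under 5 of 13 alternatives. Acvr1 had 0.79 (0.31), Bmpr1a 0.46 (0.22), Bmp4 2.21 (1.06), Fst 3.75 (1.75) and Nog 0.80 (0.97). For 6 of the 10 genes (the 4 called, Bmpr2 and Acvr1) the values of the groups did not overlap, beside 57.2% of all genes tested.

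**Figure D4:**
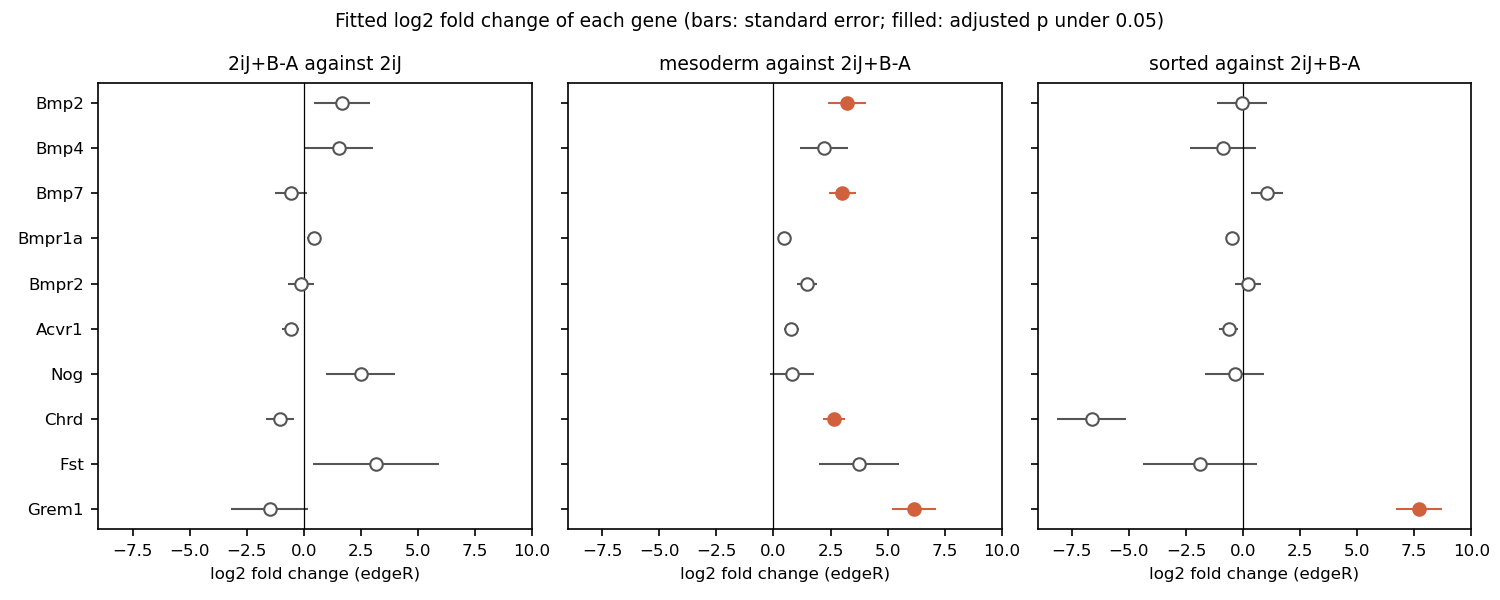
Fitted edgeR log2 fold change of each gene (points) with its standard error (bars) in the 3 comparisons between conditions; filled points have an adjusted p under 0.05. The filled points are Bmp2, Bmp7, Chrd and Grem1 in mesoderm progenitors and Grem1 in sorted cells; none is filled for 2iJ+B-A against 2iJ.

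The day 3 and day 4 mesoderm libraries differed from each other in several of the genes by more than counting error. The ratios are of single libraries, and that difference was not tested. On day 4 Bmp4 was at 22.9 times its day 3 level (19.98 to 26.3), Nog at 7.50 times (5.62 to 10.2), Bmp2 at 5.36 times (4.48 to 6.46) and Bmp7 at 2.08 times (1.92 to 2.24). Fst was 70.2-fold lower, with 167 counts against 11905, and Grem1 was at 0.456 times (0.263 to 0.769). The receptors differed less, with Bmpr1a at 1.60 times (1.54 to 1.66), Bmpr2 at 1.66 times (1.44 to 1.91) and Acvr1 at 1.04 times (0.923 to 1.17). Thus the direction against 2iJ+B-A turned with the library used. Without day 4 the log2 fold change was -1.34 for Bmp4 and -1.26 for Nog, and without day 3 it was -1.32 for Fst. Without day 3, Bmp4 passed at 3.20 (edgeR adjusted p = 0.0056), together with Bmpr1a and Bmpr2, so that 7 of the 10 passed. In that fit 27.2% of all genes tested were called, and the lone day 4 library was assumed to vary like those of 2iJ+B-A, the only condition left with more than 1 library. Brachyury (T), the marker of nascent mesoderm, was at 547 and 6.30 CPM on these days, and summed primitive endoderm markers, of which Gata4 and Gata6 are also expressed in cardiac mesoderm, were at 121 and 336 CPM. Their part in these differences was not tested.

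The sorted CDX2-GFP-positive cells were compared with the unsorted cells of 2iJ+B-A. Grem1 was higher in sorted cells, and none of the other genes passed. Grem1 met the filter on low counts only through the sorted and mesoderm libraries, where it is high. This call was therefore in part set by the filter. The background was 5.42% of all genes called, 3.34% higher and 2.08% lower, and the median log2 fold change was -0.42 over the 10 genes and -0.08 over all genes. Grem1 had 64 counts in the sorted library against 1 in all of 2iJ+B-A, a ratio of 280 (48.5 to 11230, counting error only), with an edgeR adjusted p of 0.0184. The call was lost without each 2iJ+B-A library in turn. It was also lost with the sorted library set against the fitted day 2 level, and Grem1 fell to the filter on low counts when only these 2 groups were fitted. The fibroblast markers were higher in the same library, with Col1a1 at 42.1 CPM against 0.618 to 3.15 CPM in 2iJ+B-A, and their part in the level of Grem1, as well as that of the unmapped pairs, was not tested.

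Chrd had 0 counts in sorted cells, and its mean in 2iJ+B-A was 2.98 times the floor of 3 counts in the sorted library. Its edgeR adjusted p was 0.0592. Against day 2 alone its ratio had an upper limit of 0.446, for counting error only. At the shared day 2, single libraries put Acvr1 in sorted cells at 0.477 times (0.386 to 0.586) and Bmpr1a at 0.651 times (0.615 to 0.690) the unsorted level. Nog was at 2.399 times (1.54 to 3.80), Bmp2 at 2.39 times (1.24 to 4.81), Fst at 2.32 times (1.55 to 3.51) and Bmpr2 at 1.88 times (1.39 to 2.57). Bmp4 was at 0.976 times (0.803 to 1.19), an interval that includes equality. Against the mean over days 2, 5 and 11, the fitted log2 fold changes of Bmp2, Nog and Fst were instead -0.06, -0.36 and -1.90, so for these genes the direction depended on which days stood for 2iJ+B-A.

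Outside the 10 genes, a list of 52 further pathway genes was examined, of which 42 passed the filter. In mesoderm progenitors 12 were higher and 6 lower, with a median log2 fold change of 0.67, beside 11.5% higher and 15.5% lower of all genes and a median of -0.03. These counts depended on the mesoderm library used, and a fit without either leaves 1 library in that group. Without each 2iJ+B-A library in turn 8 were higher, and 3 were lower without day 5. In those fits 12.1% to 19.7% of all genes were called, in either direction. By role the 12 and 6 of the full fit were 1 higher and 3 lower of 8 ligands, 2 and 1 of 9 receptors and co-receptors, 4 and 2 of 14 extracellular modulators, and 5 and 0 of 11 intracellular genes. Bmper, which encodes a secreted BMP-binding protein, was at 32.4 and 130 CPM in mesoderm and at 0.978 to 2.93 CPM in 2iJ+B-A (log2 fold change 5.18, edgeR adjusted p = 0.0060). Bmp5, a ligand, changed by 5.88 on the log2 scale (edgeR adjusted p = 0.0469), and its call was lost under 5 of 13 alternatives. Bmp1, which encodes a protease that cleaves chordin, had 3.08, and Smad1, a signal transducer of BMP receptors, had 2.35 (edgeR adjusted p = 0.0076 and 0.0059). In the other direction, Gdf3, a TGF-β family ligand of pluripotent cells, had -5.71, the protease gene Htra1 -1.99 and Eng, which encodes the co-receptor endoglin, -1.79 (edgeR adjusted p of 0.0016, 0.0103 and 0.0074). Genes for the intracellular part of the pathway had positive fitted values in 11 of 11 cases. The share of positive values over all genes was not computed. On day 3 of mesoderm, Smad9 (1.30 CPM) and Smad7 (25.9 CPM) were below every 2iJ+B-A library. Smad6 was then within the range of those libraries, and the other intracellular genes were above it.

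In 2iJ+B-A against 2iJ, 0 of the 42 passed edgeR and 6 had an unadjusted edgeR p under 0.05, beside 0 and 1290 of the 16961 genes tested. DESeq2 called 2, beside 1.82% of all genes. The lowest edgeR p-values were those of Htra1 (log2 fold change 1.87, adjusted p = 0.431) and Gdf6 (8.02, adjusted p = 0.502, from 0 counts in 2iJ). In sorted cells 1 passed, Smad5, at 19.6 CPM against 41.0 to 46.3 CPM in 2iJ+B-A (log2 fold change -1.09, edgeR adjusted p = 0.0473). The background there was 5.42% of all genes. The call was lost without each 2iJ+B-A library in turn. With only these 2 groups fitted, 3 of the list were lower and 1 higher, beside 12% of all genes called. With DESeq2 4 were lower, beside 15.7%, and against the fitted day 2 level 0 passed, beside 0.159%.

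Among 6 genes that BMP signalling is known to induce (Id1, Id2, Id3, Id4, Smad6 and Smad7), Id1 was at 5.12 CPM in 2i, 11.8 CPM in 2iJ and 103, 110 and 132 CPM on days 2, 5 and 11 of 2iJ+B-A. Its log2 fold change against 2iJ was 3.23 (standard error 0.35), with an edgeR adjusted p of 0.244. That was the lowest adjusted value in the comparison, though not held by Id1 alone. So none of the 6 passed edgeR, while DESeq2 called 3, beside 1.82% of all genes called. In mesoderm progenitors Id4 alone passed, at 3.34 and 7.79 CPM against 16.7 to 24.7 CPM in 2iJ+B-A (log2 fold change -1.95, edgeR adjusted p = 0.0248), a call lost without each 2iJ+B-A library in turn. Without mesoderm day 3, the log2 fold changes of Id1 and Id3 were 0.75 and 1.62, and Id4 was still lower. Without mesoderm day 4, that of Id2 was -2.01. In sorted cells none of the 6 passed. With DESeq2 1 was called lower, beside 15.7% of all genes called, and with only these 2 groups fitted 1 was, beside 12%.

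**Figure D5:**
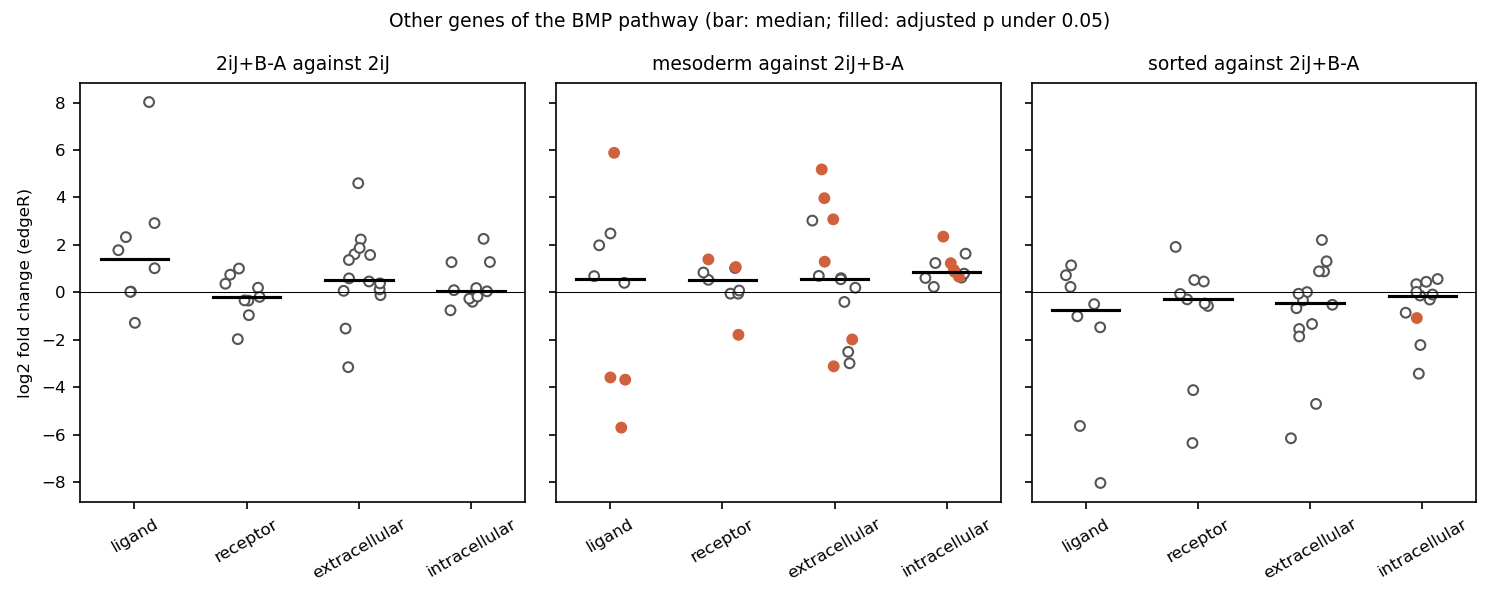
Fitted edgeR log2 fold changes of the 42 tested genes of the wider pathway list, by role (points), with the median of each role (bars); filled points have an adjusted p under 0.05. In the mesoderm comparison 12 points are filled above 0 and 6 below, in sorted cells 1 below, and in 2iJ+B-A against 2iJ none.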

How the data were processed

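RNA-seq was made from 8 libraries by the authors, who prepared strand-specific poly-A libraries, sequenced pairs of 126-base reads, trimmed them and aligned them to NCBIM37 with STAR 2.4.2a. The files they deposited give STAR's raw count of read pairs for every gene, unstranded and by strand, with no normalization. Counts of the reverse strand were used, which the dUTP-type library kit calls for; 5.03% to 6.47% of stranded pairs lay on the other strand. Symbols and positions came from GENCODE vM1, of the same build.

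CPM used the total of gene counts, and CPM per kilobase the exon length of each gene. A gene needed 10 or more counts in 2 or more libraries, and the 16961 that had them were fitted with edgeR 4.0.16 (R 4.3.3; TMM, quasi-likelihood F test, 5 condition means, 3 residual degrees of freedom) and called at a Benjamini-Hochberg adjusted p under 0.05. Standard errors were taken as |log2 fold change| over √F. The slope on log2(day) was a term within 2iJ+B-A, with 2 residual degrees of freedom. Without either mesoderm library fewer are left, and each gene's residual is then only the departure of the 2iJ+B-A days from a line. Libraries of a group were on different days and nothing in the labels marks separate cultures, so p-values measure the spread between these libraries only. The 2i, 2iJ and sorted conditions have 1 library each, whose spread was taken from the other conditions. The same holds for mesoderm progenitors in the fits that leave out either of their libraries. Ratios of single libraries have exact binomial intervals, and levels have Wilson intervals, both at 95% and for counting error only. The script was tested on simulated data.

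Alternatives were DESeq2 1.42.0 size factors or Wald test, no filter, unstranded counts, fitting the 2 groups alone, pooling 2i with 2iJ, the fitted day 2 level, and leaving out each library. The genes and lists were chosen with earlier results of these data known. Named genes were the 10, up to 4 pathway genes in each direction with the largest called change (10 CPM or more in the higher group, no overlap; otherwise the 2 lowest p-values), and 6 known targets. Sample codes begin with a different letter for mesoderm, sorted and other libraries; a batch that followed them cannot be told apart from the groups.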

Additional observations from a re-analysis of the deposited data

How the results depend on the processing

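Over the 10 genes and 4 comparisons, 446 of 478 alternative values kept direction and side of the threshold, 10 lost a call, 10 gained one and 12 turned direction; the cause was not tested. In mesoderm progenitors Grem1, which passed the filter only through libraries where it is high, kept its call in all 13 alternatives. Bmp7 and Chrd kept theirs in 12 and Bmp2 in 9. The number of the 10 genes called there ranged from 1 (without day 5 of 2iJ+B-A) to 7 (without mesoderm day 3) when a library was left out, in sorted cells from 0 to 1, and for the slope from 0 to 2. In sorted cells the number was 0 with only these 2 groups fitted, since Grem1 then failed the filter, and 0 against the fitted day 2 level, where Bmp2, Nog and Fst turned to 0.93, 1.27 and 1.57 (log2). With a library left out, log2 fold changes ranged in mesoderm progenitors from -1.34 to 3.20 for Bmp4, -1.26 to 1.68 for Nog, -1.32 to 6.08 for Fst and -2.01 to 0.038 for Id2. They ranged in sorted cells from -0.43 to 0.20 for Bmp2, -0.03 to 0.47 for Bmpr2, -0.78 to 0.42 for Nog and -2.42 to 0.39 for Fst, and in 2iJ+B-A against 2iJ from -0.38 to 0.12 for Bmpr2. Over all genes, calls in sorted cells numbered 919, but 1390 without the filter, 2665 with DESeq2, 1911 with these 2 groups alone, 27 against day 2 and 37 to 2052 with a library left out. In mesoderm progenitors they numbered 4584, but 2019 and 2666 without days 5 and 11 of 2iJ+B-A. For 2iJ+B-A against 2iJ they numbered 0, but 309 with DESeq2 and 150 with 2i and 2iJ pooled, and for the slope 0, but 2 without the filter, 115 with DESeq2 and 379 and 469 without mesoderm days 3 and 4. Of 63 levels of at least 1 CPM, unstranded counting moved values by -9.93% to 7.50% and TMM scaling by -3.73% to 3.58%. The slope was not run without a 2iJ+B-A library. No paired analysis was possible because the labels give no shared replicate numbers. Chrd, Grem1, Bmp2 and Nog rest on under 25 counts in some mESC libraries, which limits their ratios.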

Other observations

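For the ligands and antagonists that reached 10 CPM in a library, the 3 genes with the most similar profile were found among 10906 genes, by the root mean square difference of centred log2(CPM + 0.5) over the 8 libraries. This is a description, and depth and condition are shared by all points. For Bmp4 they were Robo2, Meis1 and Nexn, at differences of 0.512 to 0.516. For Bmp2 they were Rgl1, Ulk2 and Prkce (0.469 to 0.482), and for Bmp7 Dlg4, Lrp3 and Efna1 (0.341 to 0.353). For Nog they were Rbm20, Smarca2 and Tet3 (0.395 to 0.447). Fst had the least close neighbours, Evx1, 5730457N03Rik and Dclk1, at 0.906 to 0.997.

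Several of the 10 genes overlap a gene on the opposite strand: Bmp4 (Gm15217 and Gm15222), Bmpr1a (Gm17110), Acvr1 (Gm17409) and Chrd (Thpo). Read pairs on the strand opposite to each of the 10 genes, summed over libraries, were 0.72% (Grem1) to 4.44% (Chrd) of its stranded pairs, below the lowest share over all genes of any library (5.03%).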
